A study of Mus musculus with 4 samples.

Results

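The genes described here encode the chromatin reader PWWP2B, its paralogue PWWP2A, the GSE1 coiled-coil protein and subunits of the histone deacetylase complexes that these proteins are known to join. The 10 genes, Pwwp2a, Pwwp2b, Mta1, Mta2, Hdac1, Hdac2, Gse1, Kdm1a, Rcor1 and Hmg20b, were taken by name from 55267 entries in the table of expression levels. They were picked because of how Pwwp2b and Gse1 behaved in BMP6-treated against control cells, so all values of the 10 genes in that comparison are descriptions and carry no test.

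RNA-seq libraries were made from muscle stem cells (MuSCs) in culture, the stem cells that rebuild skeletal muscle fibres, which had been sorted by GFP from muscles of 9-week-old female mice carrying the Pax7-EGFP transgene (C57BL/6N(Tg(Pax7-EGFP)Tajb)). In all 4 libraries the cells had been held for 6 h without serum and with 200 ng/mL BMPR1A-Fc, a soluble receptor fragment that binds BMPs. BMP6 at 100 ng/mL was then given for 1 h to 2 cultures, and vehicle (4 mM HCl with 0.1% BSA) to the 2 control cultures. The libraries carry replicate numbers 1 and 2, which the labels name as the batch, and each batch holds 1 BMP6 and 1 control library. The EGFP transgene is shared by both groups and marks Pax7 cells at the sort; the cells then grew for 2 more days before treatment.

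Histone deacetylases remove acetyl groups from histone tails, a mark that goes with active chromatin, and they work inside large complexes. HDAC1 and HDAC2 are the catalytic subunits of several of these. In the NuRD complex they sit with the scaffold proteins MTA1 or MTA2, and PWWP2A and PWWP2B bind the MTA1, HDAC1/2 and RBBP core without the remodelling part of the complex. The PWWP domain recognises methylated histone H3 in transcribed genes, and PWWP2A also binds nucleosomes with the variant H2A.Z. In the CoREST or BHC complex HDAC1 and HDAC2 are held by the scaffold RCOR1 next to the lysine demethylase KDM1A (LSD1), with HMG20B (BRAF35) as a DNA-binding subunit, and GSE1 is found with these proteins.

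The total of reads rebuilt from coverage and length was 108138579 to 111966564 per library, and 13002 to 13203 entries reached 1 TPM (a level scaled for transcript length and for library size). Id1, a direct target of BMP signalling, served as the check of the treatment and stood at 584 and 513 TPM with BMP6 and at 90.5 and 129 TPM in controls. All 7 muscle markers were detected, with summed levels of 6664 to 6947 TPM in BMP6 and 6847 to 7626 TPM in control libraries, and Myog, a marker of committed myoblasts, was the highest of them at 4400 to 5472 TPM. Kdr of the endothelial list was listed at 0 in all libraries, and the summed endothelial list stayed at or below 0.298 TPM. Of the 6 fibroblast markers, Pdgfra stayed at or below 0.164 TPM while the collagen genes carried a list total of 291 to 406 TPM with BMP6 and of 330.2 to 403 TPM in controls. The 4 immune markers summed to at most 1.80 TPM in any library, the 4 pericyte or smooth muscle markers to 8.61 and 9.44 against 7.04 and 8.27 TPM, and the 3 Schwann markers to 0.409 and 0.514 against 0.386 and 0.601 TPM. In bulk RNA, fewer cells of a type and less RNA per cell cannot be told apart.

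Across the 4 libraries the mean levels fell in the order Hdac2, Hdac1, Mta2, Hmg20b, Kdm1a, Rcor1, Pwwp2a, Pwwp2b, Mta1 and Gse1, from 209.8 TPM for Hdac2 to 1.56 TPM for Gse1. The ranges over libraries did not overlap between Hdac2 and Hdac1, between Hdac1 and Mta2, or between Mta2 and Hmg20b. From Hmg20b downwards each gene overlapped with the next, so that 6 of the 9 neighbouring pairs were not separated beyond their spread. All 10 genes passed the filter of a mean of 1 TPM over the 4 libraries. Gse1, with a control mean of 0.518 TPM, passed only through its BMP6 libraries, so for Gse1 the filter was not independent of treatment.

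**Figure D1:**
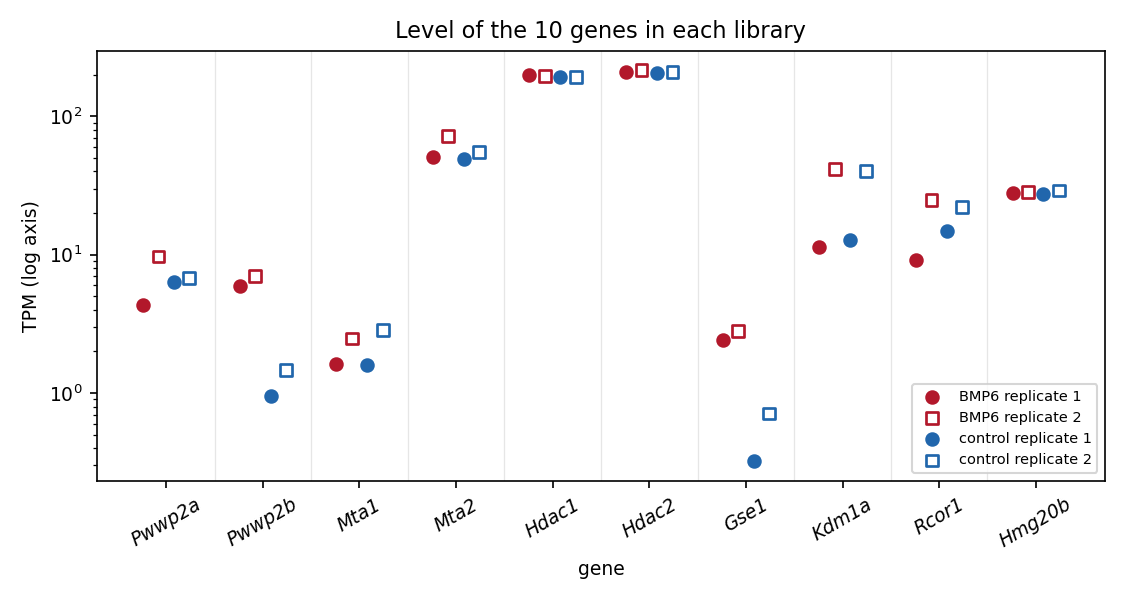
TPM (log axis) of each of the 10 genes in the 2 BMP6 libraries (red) and the 2 control libraries (blue), with replicate 1 as filled circles and replicate 2 as open squares. Pwwp2b and Gse1 split by treatment, and Kdm1a splits by replicate number.

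Pwwp2b lies on chromosome 7 (138828398 to 138847891, GRCm39, plus strand). Its level was 5.93 TPM in BMP6 replicate 1, 7.03 TPM in BMP6 replicate 2, 0.947 TPM in control replicate 1 and 1.47 TPM in control replicate 2. Both BMP6 libraries lay above both controls, with means of 6.48 ± 0.779 and 1.21 ± 0.373 TPM (SD, n = 2), a ratio of means of 5.36. The reads behind these levels, rebuilt from coverage, numbered 1196 and 1355 with BMP6 and 199 and 291 in controls. On the log2(TPM + 1) scale, which understates changes of low genes, the difference was 1.77 (SE 0.18), and it was 1.83 within replicate 1 and 1.70 within replicate 2.

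Its paralogue Pwwp2a, on chromosome 11, did not show this pattern. In GENCODE M39, an annotation newer than the one the authors used, a Pwwp2a transcript shares 461 bases at 100% identity with Ttc1, listed at up to 144 TPM. In that annotation Ttc1 did not overlap the stretch over which Pwwp2a was measured here. Whether reads of Ttc1 enter the Pwwp2a values was not tested. Pwwp2a stood at 4.35 and 9.70 TPM with BMP6 and at 6.35 and 6.83 TPM in controls. The controls lay between the 2 BMP6 libraries, and the difference on the log2(TPM + 1) scale was -0.46 within replicate 1 and 0.45 within replicate 2.

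Gse1 lies on chromosome 8 (121215186 to 121308129, GRCm39, plus strand). Its level was 2.40 TPM in BMP6 replicate 1, 2.79 TPM in BMP6 replicate 2, 0.323 TPM in control replicate 1 and 0.714 TPM in control replicate 2. The groups did not overlap, with means of 2.60 ± 0.276 and 0.518 ± 0.276 TPM (SD, n = 2) and a ratio of means of 5.01. The ratio within pairs was 7.44 for replicate 1 and 3.92 for replicate 2. The rebuilt reads numbered 1052 and 1170 with BMP6 and 144 and 313 in controls. The difference on the log2(TPM + 1) scale was 1.26 (SE 0.19).

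The 2 shorter Gse1 transcripts start inside the gene. The bases before these internal starts are shown because they are the stretches of Gse1 in which a search for SMAD motifs found matches. The sequences are from RefSeq (promoter table on GRCm38.p6), each matched GRCm39 exactly once, and they run 5′ to 3′ on the plus strand over the 250 bases before the RefSeq start, at chr8:121262346-121262595 and chr8:121263898-121264147. Capitals mark GGCGCC, a GC-rich motif of BMP SMADs that reads the same on both strands, and CAGAC, the SMAD-binding element, here as its reverse complement.
Gse1 before ENSMUST00000120493.8: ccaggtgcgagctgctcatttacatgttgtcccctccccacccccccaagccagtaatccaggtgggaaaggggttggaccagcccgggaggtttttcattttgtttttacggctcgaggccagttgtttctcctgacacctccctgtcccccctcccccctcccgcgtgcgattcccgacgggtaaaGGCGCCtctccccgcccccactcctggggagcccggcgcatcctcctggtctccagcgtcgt
Gse1 before ENSMUST00000118136.2: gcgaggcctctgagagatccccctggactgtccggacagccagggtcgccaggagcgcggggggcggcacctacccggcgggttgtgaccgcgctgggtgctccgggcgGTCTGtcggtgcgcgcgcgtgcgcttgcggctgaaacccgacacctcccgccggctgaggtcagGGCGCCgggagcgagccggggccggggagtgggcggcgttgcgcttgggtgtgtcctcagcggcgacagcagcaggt

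GGCGCC begins 62 bases before the first of these starts and 77 bases before the other, where CAGAC occupies a stretch that begins 141 bases before the start. Searched on both strands, GGCGCC was in 9.59% and CAGAC in 42.2% of the 32851 windows of this length in the table, and 3.60% held both. The RefSeq window for the long Gse1 transcript held neither, but it lies inside that transcript's first exon as the files place it, so the bases before that start were not searched. RefSeq windows were matched for 8 of the 10 genes, all but Pwwp2b and Hdac1, and 4 of the 8 (Gse1, Kdm1a, Mta1 and Pwwp2a) held GGCGCC while 3 (Gse1, Mta2 and Pwwp2a) held CAGAC. Gse1 and Hmg20b had 3 windows each, and counted by window 5 of 12 held GGCGCC and 3 of 12 held CAGAC.

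Under the call rule of an at least 2-fold change and an adjusted p below 0.1, 1 of the 10 genes, Pwwp2b, was called higher with BMP6, where 0.225% of the 10645 entries tested were called higher. With the replicate number as a term (replicate block) Gse1 was called as well, making 2 of 10 where 0.338% of entries were called higher. These shares stand beside the counts as background only, since the genes were chosen on this comparison. By the size of the log2 increase Pwwp2b ranked 11 and Gse1 ranked 27 among the 10645 entries. Gse1 was among these entries only through its level in the BMP6 libraries. Pwwp2b lost its call with a pseudocount of 5, without the filter on low values and, as it was then not tested, with a mean of at least 5 TPM.

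The deacetylases themselves were the most abundant of the 10 genes. Hdac1 measured 198 and 196 TPM with BMP6 and 192.7 and 192.9 TPM in controls, and Hdac2 measured 209.8 and 215 TPM with BMP6 and 206 and 208 TPM in controls. For both genes the BMP6 libraries exceeded the controls, with ratios of means of 1.02 for Hdac1 and 1.03 for Hdac2. With Pwwp2b and Gse1 this made 4 of 10 genes with both BMP6 libraries above both controls, where 17.4% of entries showed that order. The Hdac1 transcript shares 1444 bases at 99.4% identity with the processed pseudogene Hdac1-ps, listed at up to 25.6 TPM, so the split of reads between them is uncertain.

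The MTA scaffolds differed in level. Mta2 was at 50.5 and 72.2 TPM with BMP6 and at 49.1 and 54.9 TPM in controls, and Mta1 at 1.62 and 2.48 TPM with BMP6 and at 1.59 and 2.87 TPM in controls. For both genes the groups overlapped. Of the Mta1 level, ENSMUST00000109726.8 took 96.4% and 89.8% with BMP6 and 99.997% in control replicate 1, but 7.06% in control replicate 2, where ENSMUST00000009099.13, with 1 exon more (21 against 20), took 92.9%. The control libraries thus lay on either side of the BMP6 libraries in this split. The 2 transcripts have spliced lengths of 2826 and 2775 bases. An annotated Mta1 exon of 51 bases (113083831 to 113083881) was listed at a coverage of 0 in all 4 libraries. The split is therefore an assignment by StringTie at a low level and does not show that this exon was used. The log2(TPM + 1) difference was 0.21 (SE 0.18) for Mta2 and -0.07 (SE 0.25) for Mta1. With the replicate block the SEs were 0.09 for Mta2 and 0.13 for Mta1.

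The CoREST subunits gave no separation by treatment either. Hmg20b was between 27.4 and 29.1 TPM in all 4 libraries. Kdm1a was at 11.4 and 41.4 TPM with BMP6 and at 12.7 and 40.1 TPM in controls, and Rcor1 at 9.10 and 24.7 TPM with BMP6 and at 14.8 and 22.2 TPM in controls. The log2(TPM + 1) difference was -0.01 (SE 0.10) for Hmg20b, -0.05 (SE 0.70) for Kdm1a and -0.25 (SE 0.44) for Rcor1. These SEs are from the fit without the replicate number and so hold the difference between replicates. With the replicate block the SEs were 0.08 for Hmg20b, 0.09 for Kdm1a and 0.16 for Rcor1. Among the 8 genes other than Pwwp2b and Gse1 the differences ran from -0.25 to 0.21. The fits with 1 library left out held no replicate term, so they also take in the replicate difference. In these fits Kdm1a ran from -0.94 to 0.84, Rcor1 from -0.92 to 0.42 and Pwwp2a from -0.50 to 0.50. Mta1 ran from -0.36 to 0.22 and Mta2 from -0.04 to 0.47. Within replicates 1 and 2 the differences were -0.15 and 0.04 for Kdm1a, -0.64 and 0.15 for Rcor1 and -0.46 and 0.45 for Pwwp2a. They were 0.01 and -0.15 for Mta1 and 0.04 and 0.39 for Mta2. The pairs went in opposite directions for 5 of the 10 genes, Pwwp2a, Mta1, Kdm1a, Rcor1 and Hmg20b. The median over the 10 genes was 0.01, beside 0.02 over all 13128 entries tested.

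**Figure D2:**
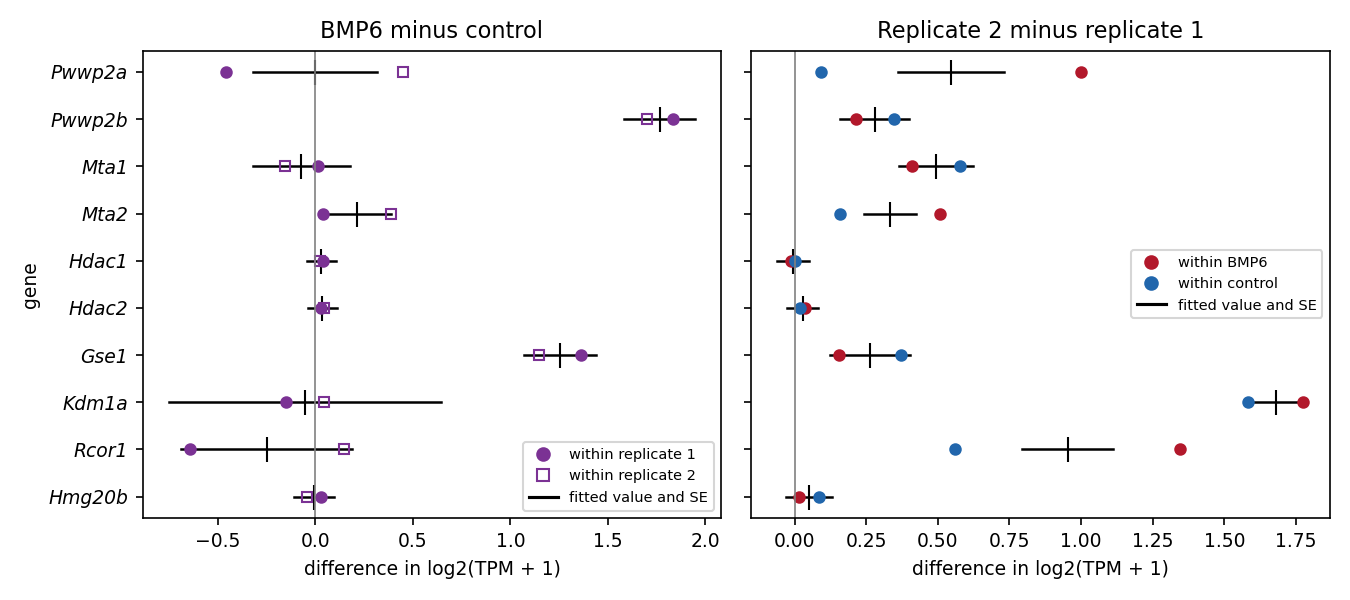
Differences in log2(TPM + 1) of the 10 genes between BMP6 and control (left; circles within replicate 1, squares within replicate 2) and between replicate 2 and replicate 1 (right; red within BMP6, blue within control), with the fitted value as a tick and its SE as a black line. Pwwp2b (1.77) and Gse1 (1.26) stand apart on the left, and Kdm1a (1.68) and Rcor1 (0.95) on the right.

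The comparison of replicate 2 with replicate 1, fitted beside treatment, played no part in the choice of genes and was tested with limma. Each replicate number stands for 1 batch, so these p-values describe these libraries and do not measure spread between batches. The labels call the replicate number the batch and do not say which steps it covers, so culture and library preparation cannot be told apart. Of the 10 genes, 5 passed an adjusted p of 0.1, all higher in replicate 2, where 20.6% of entries passed in either direction and 11.8% passed as higher in replicate 2. Both replicate 2 libraries lay above both replicate 1 libraries for 6 of the 10 genes, these 5 and Hmg20b, where 31.9% of entries showed that order. Kdm1a, the demethylase, was 3.64-fold higher in replicate 2 among BMP6 libraries and 3.16-fold higher among controls. Its difference on the log2(TPM + 1) scale was 1.68 (SE 0.09, limma adjusted p = 3.28e-05). It was the only member past both the fold and the adjusted p threshold, where 0.47% of entries were past both, and it ranked 11 by size among those 50. Each of its 21 annotated exons was higher in replicate 2, by a median of 3.82-fold in BMP6 and of 3.38-fold in control libraries. The exon ratios were uneven, from 2.78 to 16.3 in BMP6 and from 2.21 to 6.62 in control libraries. In both groups the highest was at the 5′ end, in the exon at 136329543 to 136330034. A part of uneven coverage along the transcript in this difference was not tested. In the newer annotation GENCODE M39 the opposite-strand gene Luzp1 overlaps 12958 bases of the Kdm1a locus, introns included, and Luzp1 was at up to 18.3 TPM. Its part in the Kdm1a values was not tested.

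Rcor1, the scaffold that holds KDM1A, was also higher in replicate 2, by 0.95 (SE 0.16, limma adjusted p = 0.00907). The ratio was 2.71 among BMP6 libraries and 1.51 among controls, and all 13 exons were higher in replicate 2 in both. The exon ratios of Rcor1 ran from 2.35 to 6.35 among BMP6 libraries and from 1.29 to 1.93 among controls. Mta1 differed by 0.49 (limma adjusted p = 0.0424), Mta2 by 0.33 (limma adjusted p = 0.0505) and Pwwp2a by 0.55 (limma adjusted p = 0.0923). Pwwp2a passed neither with quantile normalization (limma adjusted p = 0.103), nor without the filter on low values (0.370), nor without the trend (0.202). The Pwwp2a difference lay in the BMP6 libraries, at 1.00 against 0.09 in controls; the difference between these was not tested. Pwwp2b at 0.28 (SE 0.12) and Gse1 at 0.26 (SE 0.14) did not pass, with limma adjusted p = 0.162 and 0.243. Hmg20b, Hdac2 and Hdac1 differed by 0.05, 0.03 and -0.01, with 95% intervals within -0.13 and 0.23. The median replicate difference over the 10 genes was 0.31, beside 0.03 over all entries tested.

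The levels of Pwwp2b and Gse1 were shared out among annotated transcripts by StringTie, a program that assigns reads to transcripts. For Pwwp2b, ENSMUST00000093993.5 had 2.76 and 3.50 TPM with BMP6 and 0.181 and 0.758 TPM in controls. ENSMUST00000172136.9, which differs by a longer second exon, had 3.17 and 3.54 TPM with BMP6 and 0.766 and 0.716 TPM in controls. The second transcript took 53.5% and 50.3% of the gene's level with BMP6 and 80.9% and 48.6% in controls. The last exon, shared by both and 1504 bases long, had a mean coverage on the TPM scale of 6.14 and 7.24 with BMP6 and of 0.942 and 1.68 in controls. Each transcript has 3 exons, and the first and second exons overlap between the transcripts, so the 5 annotated exons are not separate parts of the gene. All 5 were higher with BMP6 in both pairs.

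For Gse1, the longest transcript ENSMUST00000034279.16 had 1.84 and 2.08 TPM with BMP6 and 0.254 and 0.714 TPM in controls. It made up 76.3% and 74.6% of the gene's level with BMP6 and 78.6% and 100% in controls. ENSMUST00000120493.8 had 0.428 and 0.711 TPM with BMP6, 0.0691 TPM in control replicate 1 and was listed at 0 in control replicate 2. ENSMUST00000118136.2 was listed at 0 in all libraries other than BMP6 replicate 1, where it had 0.141 TPM. Its first exon lies under the opposite-strand entry 1700016A09Rik, which was listed at 0 in BMP6 replicate 1, at 0.502 TPM in BMP6 replicate 2 and at 0.0852 and 0.0751 TPM in controls, so reads of this stretch cannot be assigned to a strand.

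**Figure D3:**
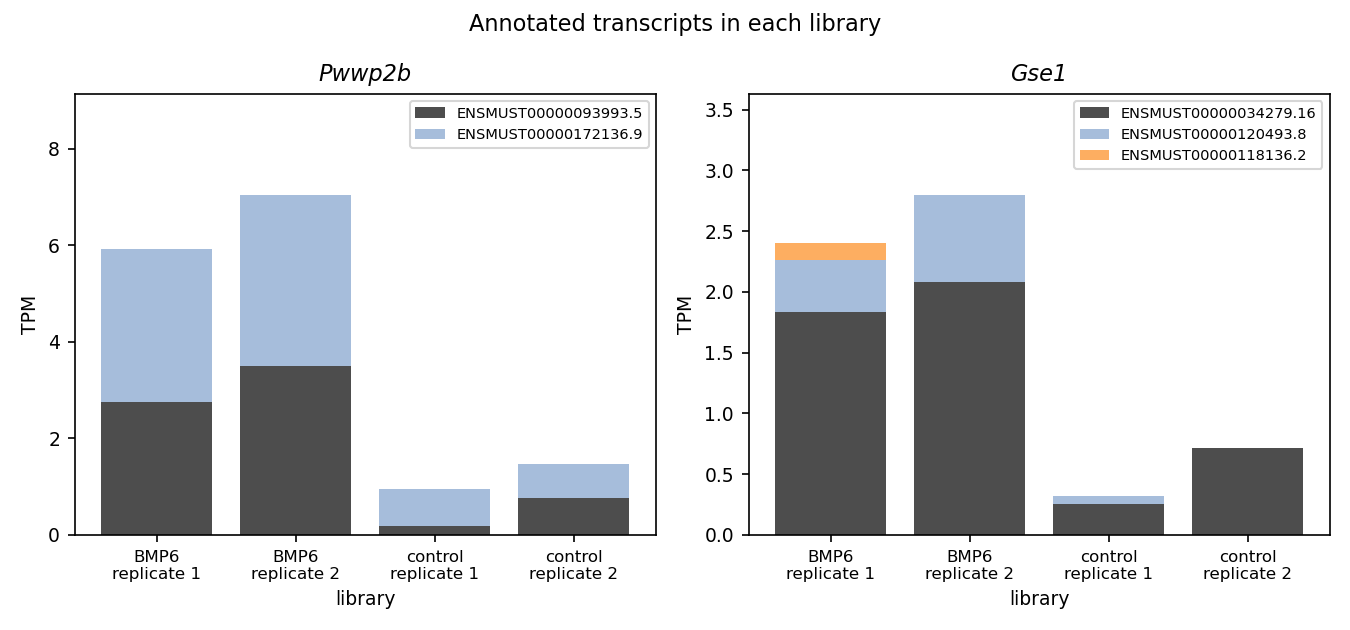
TPM (linear axis) of the annotated Pwwp2b transcripts (left) and Gse1 transcripts (right), stacked, in each of the 4 libraries. The bars reach 5.93 and 7.03 TPM for Pwwp2b and 2.40 and 2.79 TPM for Gse1 with BMP6, and at most 1.47 and 0.714 TPM in controls.

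Coverage along Gse1 was uneven. Exons 4 to 6 in 5′ to 3′ order, shared by all 3 transcripts and 592 bases in total (121280323 to 121293279 of chromosome 8), had a length-weighted mean coverage on the TPM scale of 13.7 and 13.2 with BMP6 and of 1.73 and 2.35 in controls. The next 5 exons had 0.417 and 0.856 with BMP6 and 0.180 and 0.217 in controls. Exons 12 to 17 had 1.84 and 2.43 with BMP6 and 0.317 and 1.32 in controls. The ratio of BMP6 to control was 7.94 in replicate 1 and 5.63 in replicate 2 over exons 4 to 6, and 5.80 and 1.84 over exons 12 to 17. Of the 18 annotated exons, 17 were higher with BMP6 in both pairs. In GENCODE M39, which is newer than the annotation of the files, Gse1 has transcripts that take in exon 4 or exon 5 and none of exons 7 to 18 (Gse1-206, Gse1-207 and Gse1-208), and these were not among the 3 transcripts measured.

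**Figure D4:**
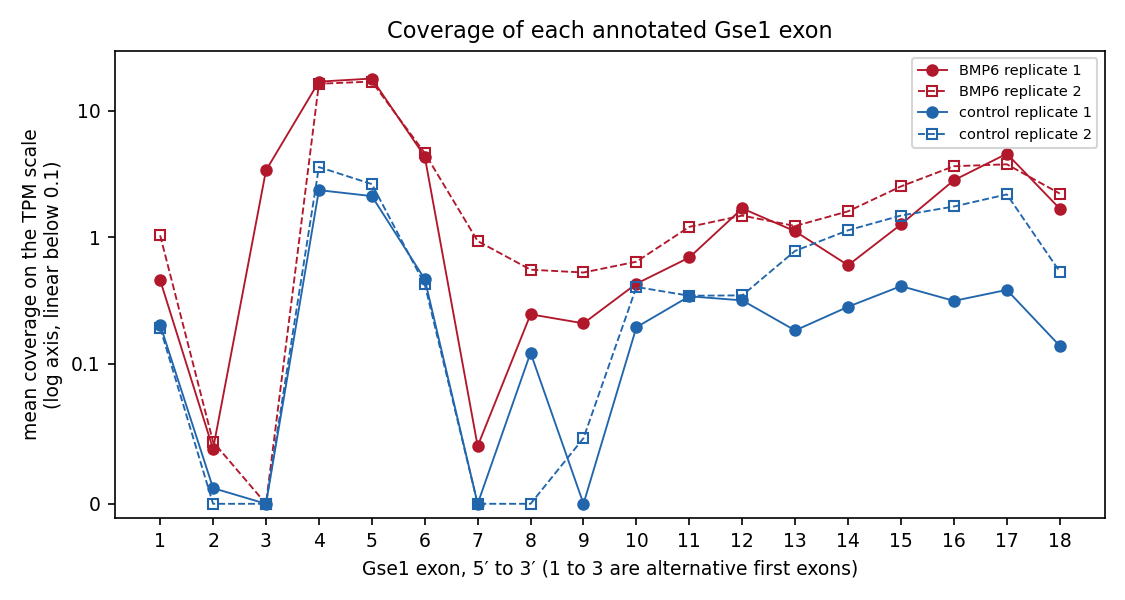
Mean coverage on the TPM scale (log axis, linear below 0.1) of the 18 annotated Gse1 exons from 5′ to 3′ in the BMP6 (red) and control (blue) libraries, with replicate 1 as filled circles and replicate 2 as open squares. Exons 4 and 5 are highest in all libraries, and 17 of 18 exons are higher with BMP6 in both pairs.

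The last Gse1 exon shares 2758 bases with Gins2, a gene on the opposite strand that encodes a subunit of the GINS replication complex. Gins2 was at 18.5 and 20.3 TPM with BMP6 and at 14.9 and 15.7 TPM in controls. The Gins2 exon over Gse1 had a coverage on the TPM scale of 15.9 and 18.1 with BMP6 and of 11.5 and 13.0 in controls, ratios of 1.38 and 1.39 within the pairs, while the 4 Gins2 exons outside Gse1 had ratios of 0.957 to 1.07 in replicate 1 and of 1.01 to 1.172 in replicate 2. The part of unassigned strand in these values was not tested. Without its last exon the mean coverage of Gse1 was 2.68 and 2.93 with BMP6 and 0.419 and 0.795 in controls, a ratio of means of 4.62 beside 4.94 over all exons.

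By the root mean square distance of log2(TPM + 1), centred on each gene's mean over the 4 libraries, the 3 entries nearest to Pwwp2b among 10635 were Skil (0.0314), Klf10 (0.0422) and Hbegf (0.067). Skil, which encodes a SMAD corepressor, was at 36.2 and 44.5 TPM with BMP6 and at 10.0 and 12.7 TPM in controls. Klf10 encodes a zinc finger transcription factor and Hbegf an EGF receptor ligand. Near to Gse1 were Sertad1 (0.0645), which encodes a transcriptional regulator of the SERTA family, and Wnt9a (0.0673), which encodes a WNT ligand. Wnt9a was at 13.4 and 15.3 TPM with BMP6 and at 4.69 and 5.59 TPM in controls. The distance between Pwwp2b and Gse1 themselves was 0.256. This scale understates changes of low genes, so the distances depend on level and do not rank genes by fold change. The ratios of means were 5.36 for Pwwp2b and 5.01 for Gse1, and voom on rebuilt reads gave log2 differences of 2.42 and 2.40. Distances over 4 libraries that hold 1 contrast describe likeness in these libraries only.

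The other genes of the related complexes were taken as 8 lists with 85 genes, of which 76 were tested, 7 lay below the filter and 2 (Ctbp2 and Brms1) were the name of no entry. By limma, 0 of the 76 passed the adjusted p of 0.1 in BMP6 against control with or without the replicate block, where 0.272% and 1.64% of all entries passed, and voom on rebuilt reads also gave 0. At an unadjusted p under 0.05 there was 1 of 76 without and 12 of 76 with the block, where 3.12% and 12.7% of all entries were found. In direction, 45 of the 76 were higher and 31 lower, with a median log2 difference of 0.03 and a range from -0.46 to 0.36.

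Among the NuRD partners, 6 of 10 were higher and 4 lower (median 0.03). Rbbp7, the histone chaperone of the MTA and HDAC core, was at 615 and 611 TPM with BMP6 and at 603 and 570.1 TPM in controls. Cdk2ap1, a small NuRD subunit, had the largest difference of all lists, -0.46 (SE 0.29), and this lay in a single library, BMP6 replicate 1, at 249.8 TPM against 488 TPM in BMP6 replicate 2 and 456 and 509.9 TPM in controls. Without BMP6 replicate 2 it passed the threshold (limma adjusted p = 0.0235, difference -0.95), and without BMP6 replicate 1 the difference was 0.02. Among the CoREST partners 7 of 9 were higher (median 0.04), with Ctbp1, a corepressor, at 274 and 275 TPM against 291 and 267 TPM, and Zmym2, a zinc finger subunit, at 9.11 and 9.90 TPM against 7.54 and 8.26 TPM.

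In the Sin3 complex, another HDAC1/2 complex, 4 of 13 were higher and 9 lower (median -0.03). Its most abundant gene Sap30 was at 270 and 289.6 TPM with BMP6 and at 268 and 302 TPM in controls, and Sap130 differed most, at -0.26 (SE 0.14). In the MiDAC and MIER complexes 3 of 5 were higher (median 0.01). Mier2, a scaffold related to the MTA proteins, was at 9.19 and 7.51 TPM with BMP6 and at 11.5 and 10.7 TPM in controls, the gene with the unadjusted p under 0.05, and its limma adjusted p with the block was 0.164. Dnttip1, which encodes a MiDAC subunit, was at 36.3 and 67.7 TPM against 53.3 and 71.2 TPM.

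In the NCoR and SMRT complex, built around HDAC3, 3 of 5 were higher (median 0.03), with Hdac3 at 94.6 and 86.3 TPM against 95.8 and 90.3 TPM and Tbl1xr1 at 0.10 (SE 0.14). Of the other deacetylases 5 of 8 were higher (median 0.03), and Hdac10 was both the highest and the one with the largest difference, -0.18 (SE 0.14). Of the other PWWP proteins 12 of 17 were higher (median 0.04). Hdgf was at 379 and 427 TPM with BMP6 and at 476 and 458 TPM in controls, and Hdgfl2 differed by -0.22 (SE 0.14). For H2A.Z and its exchange 5 of 9 were higher (median 0.04). H2az1, which encodes H2A.Z itself, was at 3014 and 2819 TPM against 2816 and 2837 TPM, and Srcap, an exchange ATPase, differed by -0.28 (SE 0.13).

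**Figure D5:**
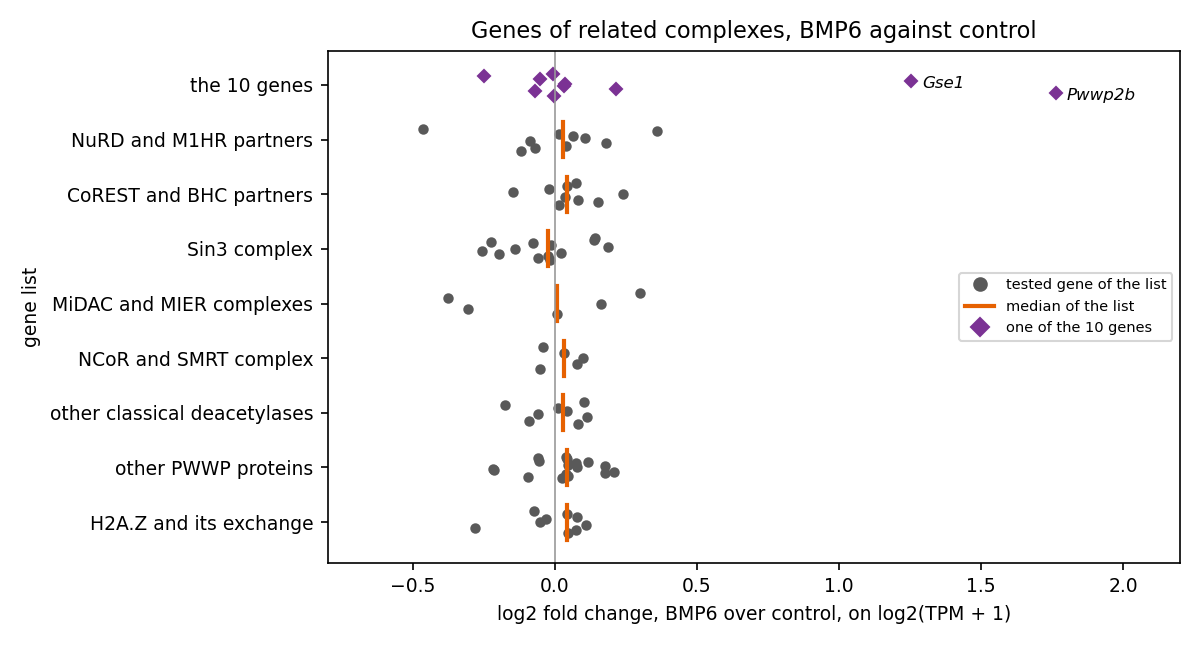
Log2 fold change of BMP6 over control on log2(TPM + 1) for the tested genes of each list (grey points, with the list's median as an orange line) and for the 10 genes (purple diamonds). The 76 list genes lie between -0.46 and 0.36, and Pwwp2b and Gse1 lie at 1.77 and 1.26.

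Between replicates, 15 of the 76 list genes passed the limma adjusted p of 0.1, 19.7% beside the 20.6% of all entries, with 12 of the 15 higher in replicate 2. In the NuRD list 5 of 10 passed, all higher in replicate 2 (Chd3, Chd4, Gatad2a, Gatad2b and Cdk2ap1). For Cdk2ap1 the difference lay mostly in the BMP6 libraries, at 249.8 TPM in replicate 1 and 488 TPM in replicate 2. The controls were at 456 and 509.9 TPM. In the CoREST list 1 of 9 passed, Rcor2, the paralogue of Rcor1, which was lower in replicate 2. Counts in the remaining lists were 2 of 13 for Sin3, 1 of 5 for MiDAC and MIER, 0 of 5 for NCoR and SMRT, 1 of 8 for the other deacetylases, 4 of 17 for the PWWP proteins and 1 of 9 for H2A.Z.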

How the data were processed

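RNA-seq of 2 BMP6 and 2 control cultures of MuSCs (Smart-seq2, unstranded, without molecular identifiers) was used. The authors aligned paired reads to GRCm39 (GENCODE M32) with STAR 2.7.11a, sorted them with SAMtools 1.17 and deposited TPM values per gene and transcript, with coverage per exon, from StringTie 2.2.1. Gene and library tables agreed for all 55267 entries. FPKM tables were not used. Depth was taken from the files as reads rebuilt from coverage, length and a read length of 100 bases; it sets the precision of low genes, and without molecular identifiers these are not independent molecules.

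Groups and replicate numbers came from the labels. Raw counts were not used here, and log2(TPM + 1) was tested with limma 3.58.1 (trend) in R 4.3.3 over entries with a mean of at least 1 TPM (13128 tested, 10645 after the authors' name exclusions for non-coding genes), with Benjamini-Hochberg adjustment over the table. Entries were called at an adjusted p below 0.1 when BMP6 over control was 2 or more, or 0.5 or less, on this scale. SEs of BMP6 against control are from the fit without the replicate number unless the block is named. Replicate 2 against 1 was fitted with treatment as a term. The fits were tested on simulated data. The labels name the replicate number as the batch, and same-numbered libraries deviated together (correlation 0.563 over entries), so the numbers pair the libraries; PC1, with 54.3% of the variance, separated them. The labels call the replicates biological and do not say whether they came from separate animals. Without the block, p-values of BMP6 against control measure the spread between these libraries. Those of replicate 2 against 1 rest on how the replicate difference varied between BMP6 and control, moderated over entries. They treat the libraries of a batch as its replicates and do not measure spread between batches.

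Exon coverage was scaled to TPM by library. Member transcripts were compared with GENCODE M39 (25 of 26 found) using minimap2 2.31 for copies of at least 200 bases at 95% identity. The genes and lists were chosen with earlier results of these data known. Named were the 10 genes, any list gene past the adjusted p, each list's most abundant gene and that with the largest difference, the 3 entries nearest to Pwwp2b and to Gse1, and Id1; some genes that these rules or the marker lists would name are not reported here, and genes named for the replicate comparison or for sharing bases were added after their values were seen. Pseudocount, filter, normalization, test, block and left-out libraries were varied.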

Additional observations from a re-analysis of the deposited data

Results flagged for a closer look

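Gse1 holds 2 entries outside the test that had signal in both BMP6 libraries and were listed at 0 in both controls. Gm26971, a non-coding entry inside a Gse1 intron, had 0.113 TPM in BMP6 replicate 1 and 0.152 TPM in BMP6 replicate 2. Mir7687, a microRNA gene in another Gse1 intron, had 0.160 and 0.0960 TPM. Both are annotated on the strand of Gse1, which unstranded libraries cannot show for their reads, and are left out of the calls by name. Their levels lie far below the filter of a mean of 1 TPM, and Mir7687 spans 59 bases. The reads behind them and the share of entries with this order at such levels were not counted. A further entry over Gse1 outside the test, 1700016A09Rik, did not show this order.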

How the results depend on the processing

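The count of genes called in BMP6 against control, 24, became 15 with a pseudocount of 5, 15 with a mean of at least 5 TPM, 12 without the trend and 37 with the replicate block (36 higher, 1 lower). Without the filter on low values it was 0 by limma, with 511 entries at an unadjusted p under 0.05. Leaving out 1 library each gave 18 to 34, with the lone library of a group assumed to vary like the others. The count of members called, 1, became 0 with a pseudocount of 5, 0 without the filter, 0 with a mean of at least 5 TPM, which left 7 of the 10 genes to test, and 2 with the replicate block. It was 1 to 2 with 1 library left out, the 2 being without control replicate 2. Pwwp2b kept its call in 9 of the 12 alternatives and Gse1 gained one in 2. The log2 difference ran from 0.89 to 2.42 for Pwwp2b and from 0.46 to 2.40 for Gse1 over the 11 alternatives that tested them, and was positive in all. The 0 complex genes past the adjusted p stayed at 0 to 1 with 1 library left out, the 1 being Cdk2ap1 without BMP6 replicate 2. Between replicates, the 2194 entries past the adjusted p became 99 without the filter and 1029 without the trend, and the 50 past both thresholds became 100 with a pseudocount of 0.1, 26 with one of 5, 29 without the filter and 107 with voom. With quantile normalization, 1025 of the 2142 past the adjusted p were higher in replicate 2, against 1256 of 2194. The 5 members became 1 without the filter (Kdm1a), 3 without the trend (Mta1, Kdm1a and Rcor1), 4 with quantile normalization, where Pwwp2a was lost, and 4 with a mean of at least 5 TPM, where Mta1 was not tested; Kdm1a passed in all 7 alternatives. Transcript shares taken from coverage were the same by construction, as TPM is coverage times a constant factor per library, so this was no check of them. The cause of each change was not tested. The replicate block changed no other call of the 10 genes or list genes.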
